A study of Arabidopsis thaliana with 42 samples.

Results

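The transcriptomes of the double mutants ddm1cmt2 and ddm1nrpd1 of Arabidopsis thaliana were set against each other across every counted locus, 3 RNA-seq libraries against 3. These are 6 of the 12 RNA-seq libraries and of the 42 samples of the series, and the comparison takes in 25069 loci, of which 24839 had enough counts to be tested. Each group carries the ddm1 mutation, so the groups differ by label in whether CMT2 or NRPD1 is mutated on top of it. The single mutant ddm1 and the double mutant ddm1nrpe1 (its sample labels read ddm1npre1), also with 3 libraries each, entered the model fit and are given beside the results as levels. All plants were seedlings of 2 weeks, raised on sucrose-containing plates at 22 °C with 16 h of light and 8 h of dark after 7 days of cold treatment of the seed at 4 °C. PolyA RNA of the seedlings was sequenced. The alleles, the number of plants per sample and the hour of harvest are not stated in the labels, and wild type was not analysed here. Nothing in the labels tells separate plants from repeat samples within a group, so each p-value rests on a spread that may be technical.

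DDM1 is a nucleosome remodeller that opens heterochromatin to DNA methyltransferases, and plants without it lose methylation over most transposons. Cytosines outside CG sites are methylated along separate routes. CMT2 is a chromomethylase that binds histone H3 methylated at lysine 9 and works mainly inside long heterochromatic transposons. NRPD1 is the largest subunit of RNA polymerase IV (Pol IV), which makes the precursors of the small RNAs that guide RNA-directed DNA methylation (RdDM), known chiefly from short transposons and the edges of long ones. NRPE1 is the corresponding subunit of Pol V, which makes the scaffold transcripts that those small RNAs pair with. According to the design text, the series asks how the CMT2 and RdDM routes interact, and the comparison of ddm1cmt2 with ddm1nrpd1 reads the 2 double mutants directly against each other.

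The 6 libraries compared held between 10.8 M and 24.8 M counts (M, 1e6 counts). Within a group, log2 levels of 2 libraries had a Pearson r between 0.972 and 0.992 across loci, and the ratio of chi-square to its degrees of freedom, from 4.58 to 13.3, put every pair beyond sampling noise. The first principal component of log2 levels, with 51.9% of the variance, put the ddm1cmt2 libraries with ddm1 and the ddm1nrpd1 libraries with ddm1nrpe1. The second, with 17.3%, set the ddm1cmt2 libraries (46.6, 44.6 and 67.9) far from those of ddm1 (-43.5, -45.2 and -62.3). Replicate 3 of ddm1cmt2 stood somewhat apart from the other replicates, at 58.3 on the first component against 80.0 and 79.0. It was the highest of its group for most root hair genes and several immune genes named below. Plastid-encoded loci took 0.924%, 0.906% and 0.779% of counts in the ddm1cmt2 libraries and 0.164%, 0.241% and 0.263% in the ddm1nrpd1 libraries. That share thus moved with the groups in every comparison below, and its part in the results was not tested. In seedlings, fewer cells of a type and less RNA per cell cannot be told apart.

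Levels below are library-size-scaled counts with TMM factors (CPM), given per library in the order of replicates 1 to 3 or as mean ± SD of 3 libraries. Log2 fold changes are ddm1cmt2 over ddm1nrpd1, so a positive value is a higher level in ddm1cmt2, and each is given ± its standard error. A locus is called higher or lower where edgeR's quasi-likelihood test gave an adjusted p under 0.05, after Benjamini-Hochberg correction across all loci tested. Strand is not stated for the counting, and neither is how reads with several matches were handled. Transposon copies, overlapping genes and close paralogs, such as the LHCB1 genes, XTH12 with XTH13, COR15A with COR15B, and RPP4 with SNC1, may therefore share reads.

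The genes named in the genotypes come first. The level of NRPD1 (AT1G63020) was 3.73, 5.90 and 4.29 CPM in ddm1cmt2 and 15, 13.8 and 13.7 CPM in ddm1nrpd1. Its transcript was thus higher in the mutant named for its loss, without overlap (-1.58 ± 0.19, adjusted p = 6.1e-06), and ddm1 and ddm1nrpe1 lay at 5.74 ± 1.27 and 4.49 ± 0.945 CPM. CMT2 (AT4G19020) stood at 25.9, 26.5 and 28.0 CPM in ddm1cmt2 and at 17.4, 20.9 and 23.2 CPM in ddm1nrpd1 (0.39 ± 0.11, adjusted p = 0.0085). In ddm1 and ddm1nrpe1 it was at 31.8 ± 2.99 and 17.0 ± 0.879 CPM. DDM1 (AT5G66750) was not called between the groups (-0.18 ± 0.16), with 14.0 ± 2.01 and 15.9 ± 2.55 CPM. NRPE1 (AT2G40030) was at 11.8 ± 1.96 CPM in ddm1cmt2 and 7.94 ± 1.75 CPM in ddm1nrpd1 (0.58 ± 0.16, adjusted p = 0.0068). Its level was 58.7 ± 5.65 CPM in ddm1nrpe1, the mutant named for its loss, and 13.1 ± 1.08 CPM in ddm1. Since the labels do not place the lesions within the genes, a transcript's level checks neither label, and the groups are named as labelled throughout.

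Of the 24839 loci tested, 12548 were called, which is 50.5%. Of these, 6469 (26.0%) were higher in ddm1cmt2 and 6079 (24.5%) were higher in ddm1nrpd1, with a median log2 fold change of 0.02 over all loci. Requiring a change of at least 2-fold as well left 1998 loci (8.04%) higher in ddm1cmt2 and 2444 (9.84%) higher in ddm1nrpd1. With 50.5% of all loci called, the counts for gene groups below are to be read against these shares. In 14409 loci (58.0%) the libraries of the groups did not overlap.

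Transposable elements (TEs) were more often higher in ddm1nrpd1. Among 1903 TE loci tested, 393 (20.7%) were higher in ddm1cmt2 and 793 (41.7%) were higher in ddm1nrpd1, against 26.0% and 24.5% of all loci, and their median log2 fold change was -0.30. Changes of at least 2-fold were made up of 177 loci higher in ddm1cmt2 and 571 higher in ddm1nrpd1. As a share of all counts the TE loci differed less, at 4.59%, 5.23% and 5.14% in the ddm1cmt2 libraries and 6.12%, 5.24% and 5.44% in the ddm1nrpd1 libraries. The groups did not overlap, but the gap between the nearest libraries was small, and a two-sided exact permutation test gave p = 0.10, the smallest value that 3 against 3 allows (0.20 when organelle counts were left out of the total). In ddm1 and ddm1nrpe1 the TE share was 6.02% ± 0.470 and 6.69% ± 0.137.

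TE loci were also described by their level in ddm1. Loci near silent in ddm1 could pass the count filter only through another group, which favours a call. That holds for the lowest bin and for part of the next. The 2 bins under 1 CPM therefore describe their loci and support no comparison with the other bins. Of 74 TE loci below 0.2 CPM in ddm1, 3 were higher in ddm1cmt2 and 56 in ddm1nrpd1, with a median log2 fold change of -3.04 and median levels of 0.15 CPM in ddm1cmt2, 1.22 in ddm1nrpd1 and 1.49 in ddm1nrpe1. Of 292 loci between 0.2 and 1 CPM, 15 were higher in ddm1cmt2 and 199 in ddm1nrpd1 (median -1.82). Of 565 loci between 1 and 5 CPM, 79 were higher in ddm1cmt2 and 221 in ddm1nrpd1 (median -0.42), and of 489 loci between 5 and 20 CPM the numbers were 130 and 180 (median -0.08). Of 483 TE loci at 20 CPM and over in ddm1, 166 were higher in ddm1cmt2 and 137 in ddm1nrpd1 (median 0.04). Protein-coding loci in the same bins had medians of -0.74 (120 loci), -0.08, 0.01, 0.04 and 0.08.

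**Figure D1:**
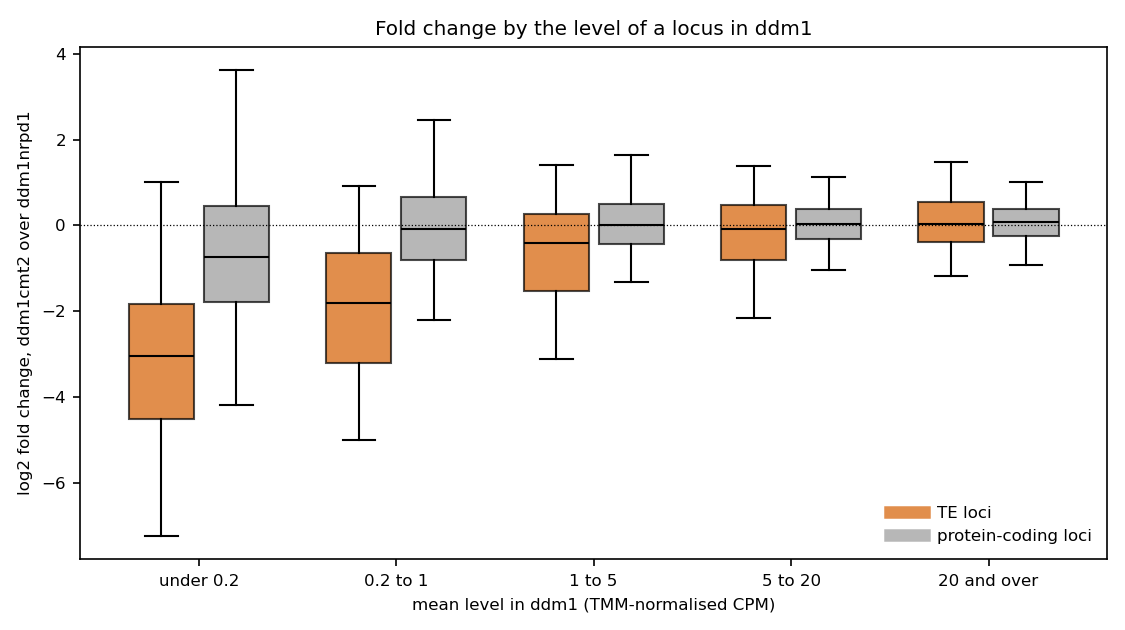
Log2 fold change of ddm1cmt2 over ddm1nrpd1 (vertical axis) for TE loci and protein-coding loci in bins of mean level in ddm1 (horizontal axis, TMM-normalised CPM). Boxes span the quartiles with the median as a line, and whiskers reach the 5th and 95th percentiles; the TE medians are -3.04 in the lowest bin, whose loci passed the count filter through another group, and 0.04 in the highest.

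The lowest TE loci had no counts in any ddm1cmt2 library. AT2TE69490 stood at 2.23, 3.39 and 2.66 CPM in ddm1nrpd1 and was at least 35.6-fold lower in ddm1cmt2, where the bound is taken against 3 counts over the group (adjusted p = 1.7e-06). AT2TE27505 (2.64, 3.01 and 2.27 CPM in ddm1nrpd1) was at least 33.7-fold lower, and AT3TE65015 at least 29.5-fold lower. AT3TE49545, AT1TE42490 and AT1TE45355 were at least 23.3-, 23.3- and 16.1-fold lower. In ddm1 these 6 loci were at 0.526 CPM or below, while in ddm1nrpe1 their means ran from 0.673 to 2.82 CPM. Loci this low in ddm1cmt2 and ddm1 could pass the count filter only through ddm1nrpd1 or ddm1nrpe1. Their choice thus favours such a split, and these levels support no likeness between groups.

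Among the highest TE loci, AT2TE20205 was by far the most abundant. It stood at 335, 414 and 398 CPM in ddm1cmt2 and at 21.9, 16.5 and 17.3 CPM in ddm1nrpd1 (4.37 ± 0.20, adjusted p = 8.4e-10), with 150 ± 38.4 CPM in ddm1 and 63.3 ± 11.3 CPM in ddm1nrpe1. AT2G12210, which the reference lists as a pseudogene, had nearly the same value in each library (343, 421 and 405 against 24.1, 17.4 and 18.4 CPM). How reads shared by the 2 loci were counted is not stated. AT2TE16955 (3.58 ± 0.594 against 0.157 ± 0.10 CPM, 4.48 ± 0.62) was higher in ddm1cmt2 than in each of the other 3 groups by its mean. Its means in ddm1 and ddm1nrpe1 were 0.640 and 0.460 CPM. At such levels it could pass the count filter only through ddm1cmt2, which favours that order. AT1TE43430 was higher by 4.08 ± 0.67, or by 3.35 without ddm1cmt2 replicate 2. AT5TE71590 and AT5TE71595 were without counts in ddm1nrpd1, which makes them at least 116- and 29.4-fold higher in ddm1cmt2. AT5TE71590 may share reads with the root hair locus EXT11, described below, which was also at 0 in ddm1nrpd1. AT3TE47880, with 1 count in ddm1nrpd1, had a ratio of 69.2 (counting interval 11.8 to 2795), and its fitted log2 value of 5.55 became 4.91 without ddm1nrpd1 replicate 2 and 7.14 without replicate 3.

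Some of the most abundant TE loci, picked after their values were seen, went opposite ways. AT1TE51735 stood at 849, 1307 and 1077 CPM in ddm1cmt2 and at 581, 463 and 533 CPM in ddm1nrpd1 (1.04 ± 0.16). AT1TE45020 stood at 352, 407 and 403 CPM in ddm1cmt2 and at 1047, 779 and 832 CPM in ddm1nrpd1 (-1.19 ± 0.12). AT4TE15820 was higher in ddm1cmt2 (753 ± 108 against 402 ± 110 CPM, 0.91 ± 0.20), and was at 1197 ± 68.8 CPM in ddm1 and 3.79 ± 1.28 CPM in ddm1nrpe1.

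By chromosome the TE loci were uneven. On chromosome 3, 56 of 399 were higher in ddm1cmt2 and 196 in ddm1nrpd1, with a median of -0.52, and on chromosome 2 the numbers were 55 and 196 of 421 (median -0.46). Chromosome 1 had 74 and 153 of 355 loci (median -0.29) and chromosome 5 had 96 and 140 of 401 (median -0.10). On chromosome 4, 112 of 327 were higher in ddm1cmt2 and 108 in ddm1nrpd1 (median 0.04).

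Pseudogene loci, many of which are decayed transposons, showed a like imbalance. Of 2097 tested, 446 (21.3%) were higher in ddm1cmt2 and 809 (38.6%) in ddm1nrpd1, with a median of -0.21. They took 4.59%, 5.26% and 5.14% of counts in ddm1cmt2 and 6.86%, 5.64% and 6.06% in ddm1nrpd1, without overlap (exact permutation p = 0.10). TE and pseudogene loci can share reads and are not separate evidence. Among 20211 protein-coding loci, 5416 (26.8%) were higher in ddm1cmt2 and 4330 (21.4%) were higher in ddm1nrpd1, with a median of 0.05. These shares lay near the 26.0% and 24.5% of all loci, most of which are protein-coding.

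Loci higher in ddm1nrpd1 were found all along the chromosomes, and a few stretches rich in pseudogenes held many of them. When the gene loci were taken in order in 451 windows of 50 neighbours, the window medians ran from -0.89 to 0.39, and 10 windows lay below -0.3. In the lowest window, from AT3G33066 to AT3G35707, 2 loci were higher in ddm1cmt2 and 35 in ddm1nrpd1, and 47 of its 50 loci were pseudogenes. The next lowest, from AT1G40106 to AT1G42280, held 9 and 30 such loci and 46 pseudogenes (median -0.75). Of the 10 lowest windows, the one from AT1G28440 to AT1G29290 (median -0.33) held 1 pseudogene. Unbroken runs of neighbours lower in ddm1cmt2 included 11 pseudogenes from AT1G40630 to AT1G41710 (median -3.10), where neighbouring loci may share reads.

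**Figure D2:**
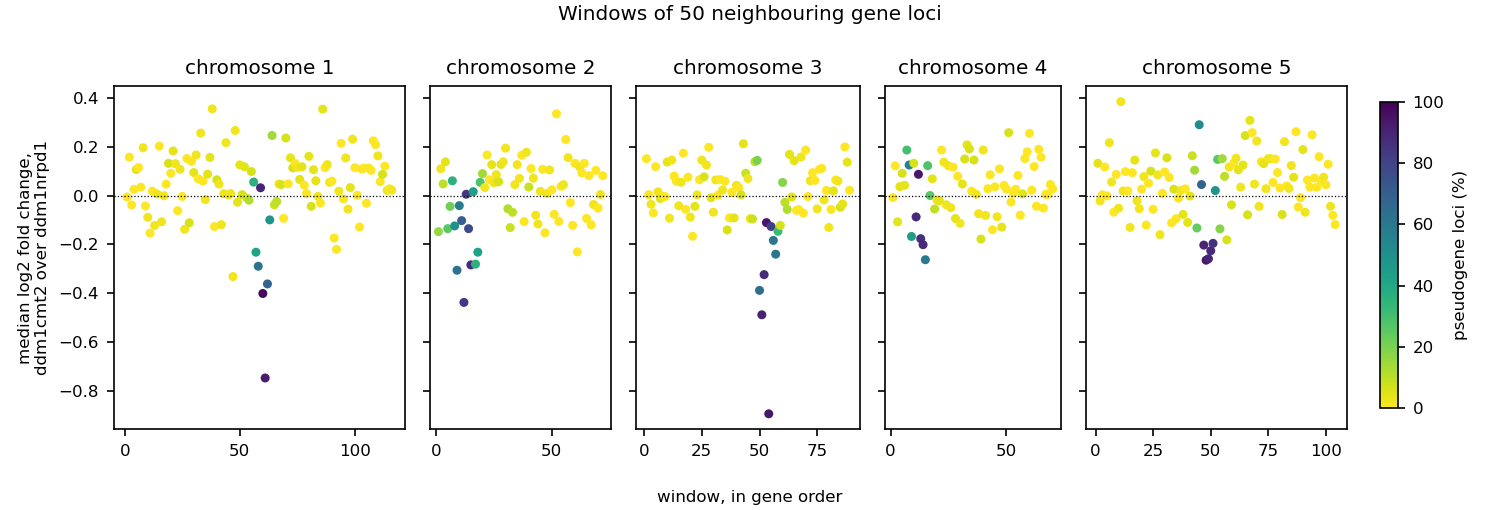
Median log2 fold change of ddm1cmt2 over ddm1nrpd1 (vertical axis) in 451 windows of 50 neighbouring gene loci, plotted in gene order for each chromosome (horizontal axis, window number) and coloured by the percentage of pseudogene loci. The lowest medians, -0.89 on chromosome 3 and -0.75 on chromosome 1, belong to windows with 47 and 46 pseudogenes.

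Genes under the control of DNA methylation differed widely. Of 7 tested, 1 was higher in ddm1cmt2 and 5 in ddm1nrpd1 (median -1.06). SDC (AT2G17690), an F-box gene silenced redundantly by non-CG methylation at promoter repeats, stood at 17.4, 28.6 and 28.8 CPM in ddm1cmt2 and at 408, 530 and 568 CPM in ddm1nrpd1 (-4.32 ± 0.21, adjusted p = 8.0e-10). Its level in ddm1cmt2 was near that of ddm1 (24.5 ± 1.35 CPM), and ddm1nrpe1 was at 613 ± 114 CPM. The list member that went the other way was the pseudogene locus AT2G12210 (4.29 ± 0.20). It is given above beside AT2TE20205, may share reads with it, and is not separate evidence. FWA (AT4G25530), a homeobox gene silenced by methylated repeats, stood at 1.72, 0.426 and 1.64 CPM against 15.6, 19.1 and 27.0 CPM (-4.15 ± 1.3, adjusted p = 0.027). The call was lost with limma-voom and without ddm1cmt2 replicate 1, 2 or 3 or ddm1nrpd1 replicate 3, and the ddm1 libraries spread widely (29.1 ± 37.4 CPM). The number higher in ddm1nrpd1 was 3 without ddm1cmt2 replicate 1 or 3 and 2 without ddm1cmt2 replicate 2 or ddm1nrpd1 replicate 1.

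ROS1 (AT2G36490), the DNA glycosylase that removes methylated cytosine and whose own promoter needs RdDM for its activity, stood at 33.3, 43.7 and 31.1 CPM in ddm1cmt2 and at 2.06, 2.48 and 3.37 CPM in ddm1nrpd1. The groups were far apart (3.79 ± 0.22, adjusted p = 5.3e-09), ddm1 was at 42.1 ± 3.91 CPM and ddm1nrpe1 at 2.27 ± 0.823 CPM. In all, 4 of 10 genes of DNA demethylation (40%) were higher in ddm1cmt2 and 2 (20%) in ddm1nrpd1 (median 0.11). Of all loci, 26.0% and 24.5% were. DME (AT5G04560), a glycosylase of the same family, was higher in ddm1cmt2 (0.69 ± 0.13), as was the histone acetyltransferase IDM1 (AT3G14980, 0.56 ± 0.14). MBD7 (AT5G59800), a methyl-CpG-binding protein that works with IDM1, was lower (-0.95 ± 0.15). The number higher in ddm1nrpd1 was 1 without ddm1cmt2 replicate 1 or ddm1nrpd1 replicate 2 or 3.

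For the lists of methyltransferases, the Pol IV arm, the Pol V arm and post-transcriptional silencing, the share of genes higher in ddm1cmt2, from 22.2% to 28.6%, was near the 26.0% of all loci. The share lower was 25%, 9.09%, 14.3% and 11.1% in that order, against 24.5% of all loci. Of 12 DNA and H3K9 methyltransferases and their partners, 3 were higher and 3 lower in ddm1cmt2 (median -0.02). SUVH6 (AT2G22740), an H3K9 methyltransferase, was higher (0.80 ± 0.10), and KYP (AT5G13960), another of these enzymes, was lower (-0.57 ± 0.13), as was the chromomethylase CMT3 (AT1G69770, -0.48 ± 0.13). In the Pol IV arm of RdDM 3 of 11 genes were higher in ddm1cmt2 and 1, NRPD1 itself, was lower (median 0.09). RDR2 (AT4G11130), the RNA polymerase that makes Pol IV transcripts double-stranded, was at 9.32 ± 1.08 against 5.45 ± 0.773 CPM (0.77 ± 0.16). The other two, NRPD2 (AT3G23780, 0.48 ± 0.15) and CHR42 (AT5G20420, 1.45 ± 0.48), lost their calls without ddm1cmt2 replicate 2 or ddm1nrpd1 replicate 1. In the Pol V arm 4 of 14 genes were higher and 2 lower (median 0.05). DRD1 (AT2G16390), a remodeller that Pol V needs, was higher (0.70 ± 0.18), and RDM1 (AT3G22680), which joins DRD1 in one complex, was lower (-0.96 ± 0.17). Those numbers became 2 higher without ddm1cmt2 replicate 2 or ddm1nrpd1 replicate 1, and 1 lower without ddm1cmt2 replicate 2 or 3 or ddm1nrpd1 replicate 2. Of 9 genes of post-transcriptional silencing 2 were higher, AGO1 (AT1G48410, 0.58 ± 0.12) and SGS3 (AT5G23570, 0.77 ± 0.16), and AGO2 (AT1G31280, -0.47 ± 0.13) was lower, a call that was lost without ddm1nrpd1 replicate 2.

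Root hair genes had the highest median log2 fold change of the gene lists. Root hairs are outgrowths of single epidermal cells, formed by basic helix-loop-helix factors that turn on genes for cell wall and vesicle growth. Of 26 genes, 23 were higher in ddm1cmt2 and 1 in ddm1nrpd1, with a median log2 fold change of 7.27, and 7 of the 26 had no count in any ddm1nrpd1 library. Among the wall genes, COBL9 (AT5G49270), needed for hair tip growth, stood at 6.06, 5.66 and 8.86 CPM in ddm1cmt2 and at 0, 0.0763 and 0.130 CPM in ddm1nrpd1 (6.48 ± 0.38, adjusted p = 2.0e-09). The expansin gene EXPA7 (AT1G12560) stood at 9.79, 7.61 and 12.6 CPM against 0, 0.0381 and 0.0649 CPM, a ratio of 283 (counting interval 77.8 to 2347). PRP1 (AT1G54970), a proline-rich wall protein gene, was at 18.3, 16.6 and 31.7 CPM in ddm1cmt2 and at 0 in ddm1nrpd1, which makes it at least 420-fold higher.

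The remaining genes without a count in ddm1nrpd1 were EXT11 (AT5G49080), an extensin locus that the reference lists as a pseudogene, at least 433-fold higher, RHS12 (AT3G10710) and RHS18 (AT5G22410), at least 221- and 149-fold higher, and the xyloglucan-modifying enzyme genes XTH12 (AT5G57530), XTH26 (AT4G28850) and XTH13 (AT5G57540), at least 198-, 106- and 94.4-fold higher. The same genes were present in ddm1 and ddm1nrpe1, where EXT11 was at 23.7 ± 4.42 and 6.48 ± 0.392 CPM and RHS12 at 9.27 ± 1.45 and 4.49 ± 0.33 CPM. For 21 of the 23 higher genes all ddm1nrpe1 libraries lay above all ddm1nrpd1 libraries, for 17 they lay below all ddm1cmt2 libraries, and for 22 the ddm1 and ddm1cmt2 libraries overlapped. The 23 genes were chosen as higher in ddm1cmt2 than in ddm1nrpd1, which favours ddm1nrpe1 lying between them. The shares of all loci with such orders were not worked out, so these numbers support no ranking of the groups.

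Among the regulators, the early acting RHD6 (AT1G66470) was not called (2.55 ± 0.535 against 1.81 ± 0.122 CPM, 0.47 ± 0.27), nor was GL2 (AT1G79840), the homeobox gene that marks hairless cells (61.2 ± 6.70 against 50.2 ± 7.66 CPM, 0.28 ± 0.12). The call for GL2 was gained with limma-voom and without ddm1cmt2 replicate 3 or ddm1nrpd1 replicate 1. Downstream of RHD6, RSL4 (AT1G27740) stood at 4.94, 2.92 and 5.11 CPM against 0.705, 0.419 and 0.324 CPM (3.13 ± 0.33), and RSL2 (AT4G33880) at 3.33 ± 0.465 against 0.0323 ± 0.0298 CPM, a ratio of 96.7 (26.2 to 808). LRL3 (AT5G58010), another factor of this family, had 1 count in ddm1nrpd1 and a ratio of 393 (69.9 to 15592). CPC (AT2G46410), a small MYB protein that promotes hair fate, was lower in ddm1cmt2 (1.94 ± 0.777 against 3.73 ± 0.258 CPM, -0.92 ± 0.24). RHD2 (AT5G51060), the NADPH oxidase of growing hairs, differed much less (17.3 ± 0.880 against 8.34 ± 1.96 CPM, 1.05 ± 0.15). Replicate 3 was the highest of the ddm1cmt2 libraries for 21 of the 23 genes. RHD6 and GL2 were named after their values were seen.

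**Figure D3:**
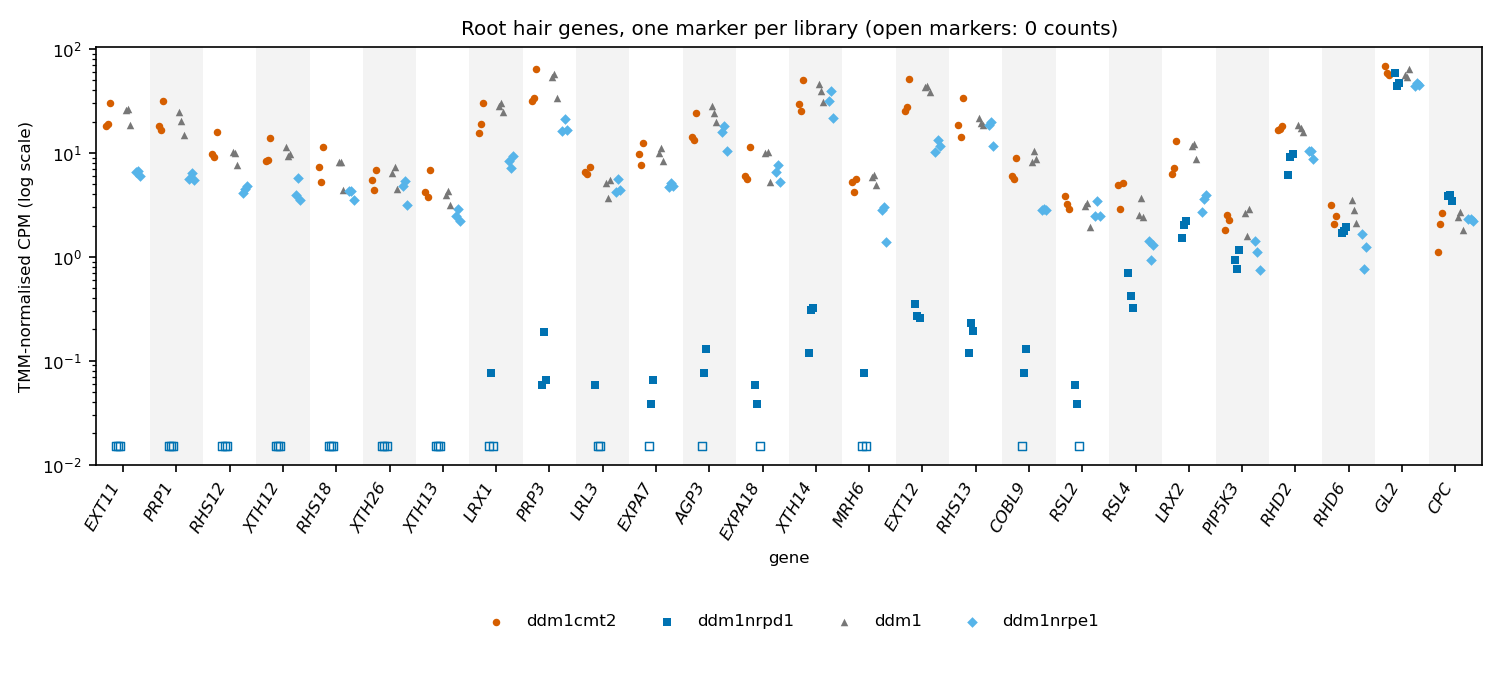
Level of the 26 root hair genes (horizontal axis, ordered by fold change) in each of 12 libraries, as TMM-normalised CPM on a log scale, with open markers at the bottom for libraries with 0 counts. The ddm1nrpd1 squares lie far below the ddm1cmt2 circles for most genes, with 7 genes at 0 in all of them, while RHD6 and GL2, near the right end, were not called.

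Other root tissue differed less. Of 9 genes of the endodermis and the Casparian strip, the lignin barrier that this cell layer builds, 8 were higher in ddm1cmt2 and 1 in ddm1nrpd1 (median 0.97). CASP1 (AT2G36100), a scaffold of the strip, stood at 22.4, 19.8 and 26.7 CPM against 10.3, 10.1 and 12 CPM (1.08 ± 0.15). ESB1 (AT2G28670), a dirigent-like protein (1.07 ± 0.16), and the peroxidase PER64 (AT5G42180, 0.97 ± 0.16) were close to it. SCR (AT3G54220), the factor that sets endodermis identity and is also active in shoots, was the 1 lower gene (30.8 ± 2.13 against 63.4 ± 2.46 CPM, -1.04 ± 0.11). Of 8 genes of nitrate uptake and reduction 4 (50%) were higher in ddm1cmt2, against 26.0% of all loci. Among them were the nitrate response factor NLP7 (AT4G24020, 0.70 ± 0.10) and the transporter partner NRT3.1 (AT5G50200, 0.94 ± 0.15). NIA2 (AT1G37130), a nitrate reductase, was lower (-0.44 ± 0.13), but not without ddm1cmt2 replicate 1.

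Most circadian clock genes differed, dawn and later genes in opposite directions. In this clock the MYB factors CCA1 and LHY peak around dawn, the PRR genes follow one another through the day, and GI and FKF1 peak towards evening. Of 18 genes 11 were higher in ddm1cmt2 and 5 in ddm1nrpd1, which is 16 of 18 against 50.5% of all loci (median 0.47). LHY (AT1G01060) stood at 22.1, 24.8 and 27.2 CPM in ddm1cmt2 and at 550, 508 and 477 CPM in ddm1nrpd1 (-4.37 ± 0.13, adjusted p = 7.8e-13). CCA1 (AT2G46830) was lower by -1.83 ± 0.12, the related RVE8 (AT3G09600) by -2.82 ± 0.17 and the coactivator LNK2 (AT3G54500) by -1.40 ± 0.14. The dawn genes were thus low in ddm1cmt2 and high in ddm1nrpd1, and ddm1 was on the high side too (LHY 647 ± 60.7 CPM), with ddm1nrpe1 between (216 ± 18.3 CPM).

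PRR5 (AT5G24470), an afternoon gene, stood at 51.9, 56.5 and 52.6 CPM in ddm1cmt2 and at 2.94, 2.1 and 1.43 CPM in ddm1nrpd1 (4.63 ± 0.17, adjusted p = 8.8e-12). FKF1 (AT1G68050), a blue-light receptor that acts towards evening, stood at 11.7, 12.6 and 12.2 CPM against 0.0587, 0.0381 and 0.130 CPM (7.31 ± 0.34), and was also low in ddm1 (0.293 ± 0.130 CPM) and ddm1nrpe1 (0.331 ± 0.154 CPM). PRR7 (AT5G02810, 2.16 ± 0.10) and CHE (AT5G08330, 2.08 ± 0.14), a repressor of CCA1, were higher in ddm1cmt2. GI (AT1G22770), named after its values were seen, was at 126 ± 14.5 against 68.9 ± 12.2 CPM (0.87 ± 0.13), and at 1.14 ± 0.241 CPM in ddm1. LNK1 and PRR9 were not called. Levels of these genes are known to change through the day, and the part of harvest time in the result was not tested.

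**Figure D4:**
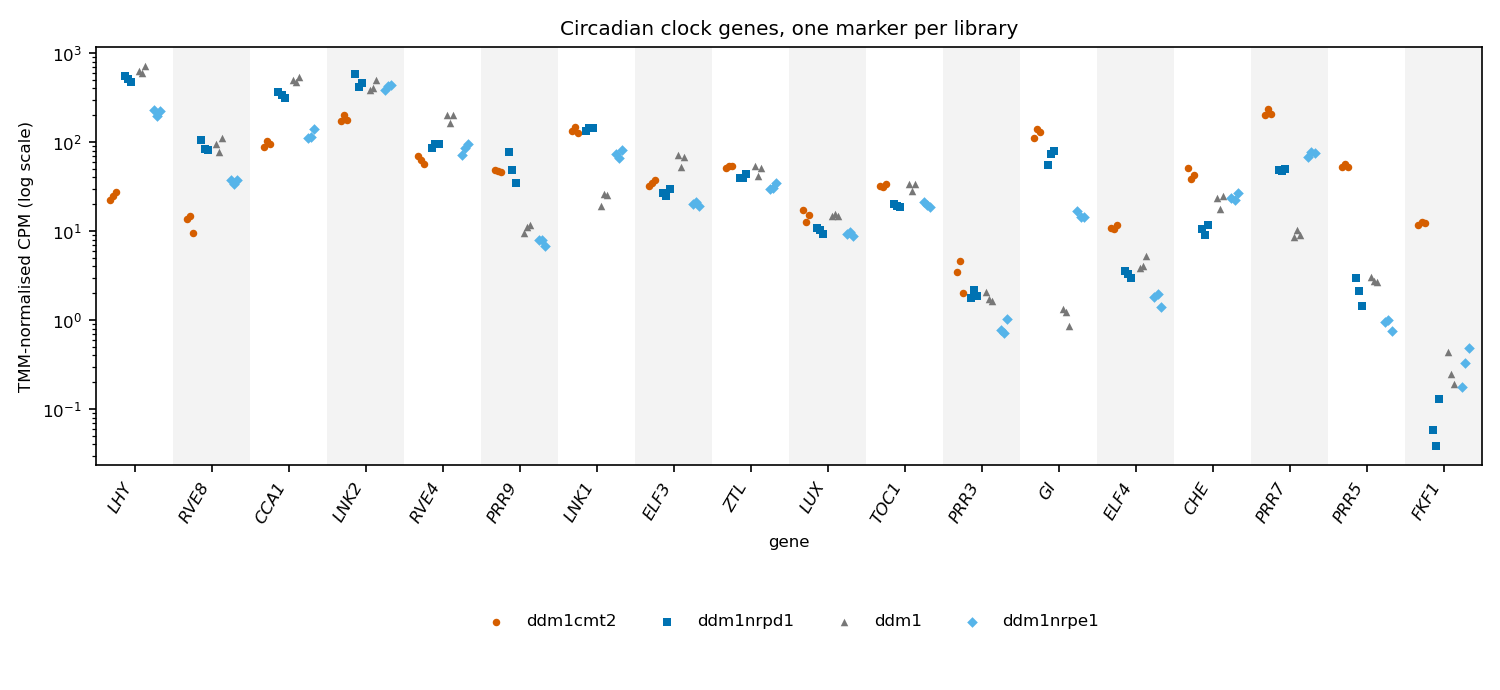
Level of 18 circadian clock genes (horizontal axis, ordered by fold change) in each of 12 libraries, as TMM-normalised CPM on a log scale. At the left LHY, RVE8 and CCA1 are lower in ddm1cmt2 (circles) than in ddm1nrpd1 (squares), and at the right PRR7, PRR5 and FKF1 are higher, without overlap of the groups.

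Several flowering genes are known as outputs of the clock. Of 7 tested, 3 (42.9%) were higher in ddm1cmt2 and 1 (14.3%) lower (median 0.63), against 26.0% and 24.5% of all loci. CO (AT5G15840), the day-length sensor of flowering, stood at 0.303, 0.487 and 0.639 CPM against 3.58, 2.29 and 1.43 CPM (-2.32 ± 0.39). CDF1 (AT5G62430), a repressor of CO, was higher (1.18 ± 0.14), as were the floral integrator SOC1 (AT2G45660, 84.2 ± 6.59 against 24.3 ± 1.58 CPM, 1.79 ± 0.11) and the floral repressor SVP (AT2G22540, 0.84 ± 0.08).

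Cold and drought genes were mostly higher in ddm1cmt2. Of 14 tested, 12 were higher and 0 lower (median 2.29), all 12 by at least 2-fold. COR15B (AT2G42530), a chloroplast protein that protects membranes in frost, stood at 44.4, 49.1 and 28.8 CPM in ddm1cmt2 and at 0.940, 0.496 and 1.1 CPM in ddm1nrpd1 (5.66 ± 0.27, adjusted p = 4.9e-10). Its neighbour COR15A (AT2G42540) was at 45.8 ± 12.7 against 1.98 ± 0.383 CPM (4.54 ± 0.27). The abscisic acid-induced dehydrin RAB18 (AT5G66400) stood at 21.8, 31.0 and 26.8 CPM against 0.705, 0.953 and 0.908 CPM (4.93 ± 0.35), and the dehydrin COR47 (AT1G20440) at 465 ± 24.6 against 160 ± 25.3 CPM (1.54 ± 0.13). In ddm1 and ddm1nrpe1, RAB18 was at 0.508 ± 0.226 and 0.800 ± 0.669 CPM. ZAT12 and ABI5 were not called, and without ddm1cmt2 replicate 3 ZAT12 was called lower. For all 12 genes the ddm1nrpe1 libraries lay below all ddm1cmt2 libraries. These 12 genes were chosen as higher in ddm1cmt2, which favours that order, and its share over all loci was not worked out.

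Jasmonate and wound genes leaned the same way, with 7 of 15 higher in ddm1cmt2 and 1 lower (median 0.59). The jasmonate synthesis genes AOS (AT5G42650) and AOC2 (AT3G25770) were at 115 ± 9.11 against 47.3 ± 6.78 CPM (1.28 ± 0.11) and at 96.7 ± 6.44 against 24.2 ± 3.94 CPM (1.99 ± 0.37). VSP2 (AT5G24770), a storage protein induced by jasmonate, stood at 42.8, 42.8 and 27.1 CPM against 5.46, 7.17 and 7.85 CPM (2.46 ± 0.24). LOX4 (AT1G72520, -0.82 ± 0.26), the 1 lower gene, lost its call without ddm1cmt2 replicate 1 or 2, and the fit of the 6 libraries alone made 2 genes lower.

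Nuclear genes of leaf photosynthesis were higher in ddm1cmt2 in 15 of 19 cases and lower in 1 (median 1.3). The light-harvesting genes led. LHCB3 (AT5G54270) stood at 6641, 6440 and 5508 CPM in ddm1cmt2 and at 1748, 1673 and 1930 CPM in ddm1nrpd1 (1.80 ± 0.15, adjusted p = 8.9e-08), with 1614 ± 220 CPM in ddm1 and 2762 ± 460 CPM in ddm1nrpe1. LHCB1.2 (AT1G29910, 1.90 ± 0.17) and the photosystem I subunits PSAF (AT1G31330, 1.46 ± 0.13) and PSAD-1 (AT4G02770, 1.3 ± 0.12) were higher as well. The Rubisco small subunit gene RBCS1B (AT5G38430) was lower (1143 ± 32.0 against 2506 ± 842 CPM, -1.13 ± 0.21). RBCS1A (AT1G67090, 0.21 ± 0.12), RCA (AT2G39730, 0.23 ± 0.15) and CA1 (AT3G01500, 0.37 ± 0.21) were not called, though CA1 was with the 6 libraries alone. Light-harvesting genes are known to follow the clock, and the part of harvest time in these differences was not tested.

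Plastid-encoded loci were higher in ddm1cmt2 in 96 of 110 cases and lower in 5, with a median of 2.94. They did not move as one, since 33 loci differed by more than 5 on the log2 scale and 10 were below 0. ATCG01130 stood at 708, 612 and 415 CPM in ddm1cmt2 and at 0.352, 0.839 and 1.36 CPM in ddm1nrpd1 (9.42 ± 0.32). ATCG00480 stood at 1505, 1676 and 1438 CPM against 17.9, 12.7 and 14.9 CPM (6.67 ± 0.17), with 3916 ± 542 CPM in ddm1 and 17.1 ± 0.429 CPM in ddm1nrpe1. Its neighbour by number, ATCG00490, was at 43.5 ± 4.02 against 20.4 ± 6.95 CPM (1.08 ± 0.36), and ATCG00020 was not called (-0.27 ± 0.43). ATCG00920 and ATCG01210 were lower (-1.04 ± 0.30 and -1.06 ± 0.31). The number lower ranged from 2 to 7 when single libraries were left out (3 without ddm1cmt2 replicate 2 or 3, 2 without ddm1nrpd1 replicate 3). These loci were picked after their values were seen, and the files and the reference give them no names. The libraries were made from polyA RNA, which holds few plastid transcripts, and the part of polyA capture in these values was not tested.

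The nuclear genes of the plastid transcription machinery did not move as one either (median 0.05). Of 14, 3 (21.4%) were higher and 6 (42.9%) lower in ddm1cmt2, against 26.0% and 24.5% of all loci. SIG5 (AT5G24120), a sigma factor that follows light and the clock, was at 73.4 ± 9.76 against 173 ± 18.4 CPM (-1.24 ± 0.12), and SCA3 (AT2G24120), the phage-type RNA polymerase of plastids, at 18.1 ± 1.81 against 50.4 ± 3.64 CPM (-1.47 ± 0.12). The sigma factors SIG2 (AT1G08540, 0.48 ± 0.11) and SIG4 (AT5G13730, 0.58 ± 0.15) were higher. Without ddm1cmt2 replicate 3, 5 genes were higher.

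Genes of salicylic acid immunity were mostly not called. Of 18, 3 (16.7%) were higher in ddm1cmt2 and 1 (5.56%) was lower (median 0.20), against 26.0% and 24.5% of all loci. PR1 (AT2G14610), a secreted antimicrobial protein and the usual marker of this response, was the lower one, at 36.8, 40.5 and 68.7 CPM in ddm1cmt2 and 814, 817 and 548 CPM in ddm1nrpd1 (-3.90 ± 0.61, adjusted p = 0.00066). In ddm1 it was at 5.73 ± 5.09 CPM and in ddm1nrpe1 at 983 ± 356 CPM. The receptor genes RPP4 (AT4G16860) and SNC1 (AT4G16890), neighbours in one resistance gene cluster, were higher in ddm1cmt2. RPP4 stood at 133, 160 and 155 CPM against 42.5, 43.4 and 43.0 CPM (1.79 ± 0.09), with 13.9 ± 1.28 CPM in ddm1, and SNC1 at 299 ± 34.0 against 177 ± 9.77 CPM (0.76 ± 0.10). NPR1 (AT1G64280), the salicylic acid receptor, was higher by 0.45 ± 0.11. The list rested on single libraries: without ddm1cmt2 replicate 3 the number lower was 7, and without replicate 2 the number higher was 7. Replicate 3 stood out, with WRKY70 (AT3G56400), named after its values were seen, at 47.0 CPM against 19.7 and 16.0 in the other ddm1cmt2 libraries.

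Heat stress genes were lower in ddm1cmt2 in 6 of 12 cases (50%, against 24.5% of all loci) and higher in 0 (median -0.41). HSFA2 (AT2G26150), a factor induced by heat and oxidative stress, stood at 0.606, 0.608 and 1.19 CPM against 11.6, 7.78 and 5.25 CPM (-3.38 ± 0.36), and the disaggregase HSP101 (AT1G74310) was lower as well (-1.07 ± 0.22). The number lower was 2 without ddm1cmt2 replicate 2 and 3 without ddm1nrpd1 replicate 1. Of 10 senescence genes 5 (50%) were lower and 1 (10%) higher (median -0.70), against 24.5% and 26.0% of all loci. The NAC factor gene NAP (AT1G69490) was lower (6.80 ± 2.18 against 27.9 ± 11.6 CPM, -2.06 ± 0.37), as were SEN1 (AT4G35770, -1.84 ± 0.36) and the sugar transporter SAG29 (AT5G13170, -1.3 ± 0.24). NYC1 (AT4G13250), a chlorophyll b reductase, was higher (0.87 ± 0.09).

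Flavonoid genes were lower in ddm1cmt2 in 9 of 15 cases (60%) and higher in 2 (13.3%), against 24.5% and 26.0% of all loci (list median -0.98). The enzyme genes F3H (AT3G51240), at 55, 52.7 and 45.4 CPM against 155, 170 and 202 CPM (-1.78 ± 0.12), and UGT78D2 (AT5G17050), at 35.3 ± 1.12 against 105 ± 2.48 CPM (-1.57 ± 0.10), were the clearest by adjusted p. CHI (AT3G55120, -1.04 ± 0.11) and their regulator MYB12 (AT2G47460, -1.50 ± 0.19) were lower too. The 2 higher genes, DFR (AT5G42800, 0.84 ± 0.32) and UF3GT (AT5G54060, 1.17 ± 0.37), belong to the anthocyanin branch. The number higher was 0 without ddm1cmt2 replicate 2, 1 without ddm1nrpd1 replicate 1 or 3 or with the 6 libraries alone, and 4 without ddm1cmt2 replicate 3. In ddm1 F3H was at 23.7 ± 1.32 CPM, below both double mutants. Of 15 genes of aliphatic glucosinolates, sulphur-rich defence compounds, 8 were lower and 0 higher (median -0.37), led by BCAT4 (AT3G19710, 76.1 ± 5.96 against 158 ± 8.49 CPM, -1.05 ± 0.17) and the transporter BAT5 (AT4G12030, -0.86 ± 0.14). Without ddm1cmt2 replicate 3, 1 gene was higher.

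Of 16 DNA damage genes 4 were lower in ddm1cmt2, a share of 25% that is near the 24.5% of all loci, and 0 were higher (median -0.15). GMI1 (AT5G24280), induced by irradiation, was at 3.74 ± 1.38 against 11.4 ± 1.29 CPM (-1.61 ± 0.21), and RNR1 (AT2G21790), the large subunit of ribonucleotide reductase, was lower (-0.63 ± 0.12). SMR5 (AT1G07500), a cell cycle inhibitor induced by damage, was lower as well (-1.23 ± 0.35). Of 15 cell division genes 7 were lower and 0 higher, with a median of -0.35 and no change of 2-fold. The replication helicase subunits MCM5 (AT2G07690, -0.46 ± 0.11), MCM2 (AT1G44900, -0.52 ± 0.14) and MCM7 (AT4G02060, -0.34 ± 0.09) were among them. The number lower was 4 without ddm1cmt2 replicate 3 or ddm1nrpd1 replicate 2.

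**Figure D5:**
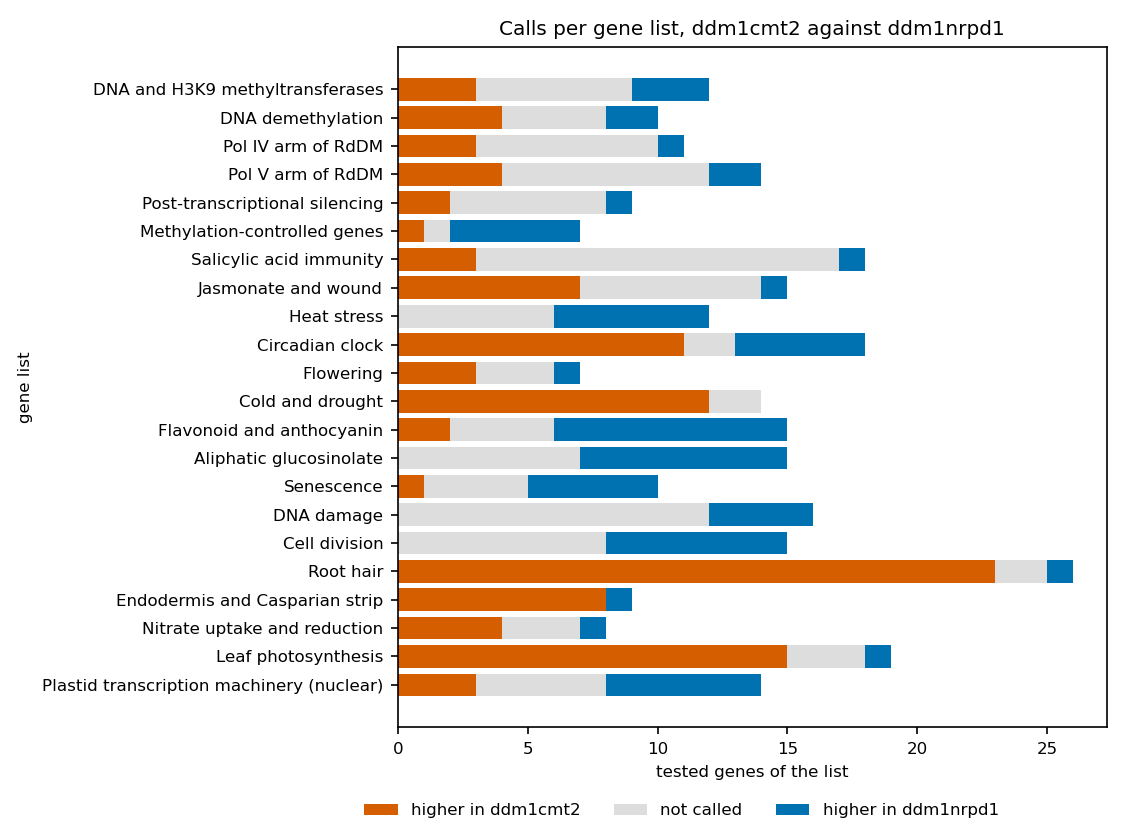
Number of tested genes per list (horizontal axis) that were higher in ddm1cmt2, not called, or higher in ddm1nrpd1, for the 22 lists with at least 7 tested genes (vertical axis). Root hair, endodermis, cold and drought, and leaf photosynthesis genes were mostly higher in ddm1cmt2, while over all loci 26.0% were higher and 24.5% lower.

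Markers of seed, pollen and flower organs were examined as well. None of 7 seed genes was in the count table. Of 5 pollen genes, GEX2 (AT5G49150) was tested and not called (1.90 ± 0.177 against 1.99 ± 0.0765 CPM), and of 5 flower organ genes 2 were tested. SEP3 (AT1G24260), a floral MADS-box gene, stood at 4.44, 2.62 and 11 CPM in ddm1cmt2 and at 6.34, 5.64 and 4.93 CPM in ddm1nrpd1 and was not called. AG (AT4G18960), which specifies stamens and carpels, was lower in ddm1cmt2 (0.101, 0.365 and 1.1 against 2.00, 1.79 and 1.56 CPM, -1.78 ± 0.60), a call that was lost without ddm1cmt2 replicate 1 or 2 or ddm1nrpd1 replicate 1 or 2.

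Of the 8 nuclear loci outside TEs that were highest by fitted fold change, 6 are root hair genes given above. AT5G06630, at 18.1, 25.1 and 37.6 CPM in ddm1cmt2, had 1 count in ddm1nrpd1 and a ratio of 1579 (counting interval 283 to 62432), and its fitted log2 value of 10.05 became 11.53 without ddm1nrpd1 replicate 2. TPS03 (AT4G16740), a terpene synthase gene, was the other one. It stood at 10.2, 4.50 and 5.30 CPM in ddm1cmt2 and had no count in the 9 libraries of ddm1nrpd1, ddm1 and ddm1nrpe1, which makes it at least 122-fold higher than in ddm1nrpd1. TPS03 could thus pass the count filter only through ddm1cmt2, which favours that split. At the other end, AGL34 (AT5G26580), a MADS-box gene, stood at 0 in ddm1cmt2 and at 2.29, 2.63 and 1.43 CPM in ddm1nrpd1, so that it was at least 27.6-fold lower. AT2G20613, also protein-coding, was at least 13.4-fold lower. The other 6 of the 8 lowest loci were pseudogenes, 5 of them at 0 in ddm1cmt2 (AT4G12426, AT2G03080, AT3G42883, AT3G44045 and AT1G35050, at least 14.4- to 33.9-fold lower). The sixth, AT5G31122, had 2 counts in ddm1cmt2 and a ratio of 162 (44.7 to 1345) in favour of ddm1nrpd1. In ddm1 the 8 lowest loci had means of 0.105 CPM or below. They could pass the count filter only through ddm1nrpd1 or ddm1nrpe1, which favours such a split. In all, 29 called loci had no count in ddm1nrpd1, of which 25 were protein-coding, and 17 had none in ddm1cmt2, of which 8 were TEs and 6 pseudogenes. A locus without counts in a group passed the count filter only through other groups, which favours a call. Of the 24839 loci tested, 20211 were protein-coding, 1903 TEs and 2097 pseudogenes. The ddm1cmt2 libraries held fewer counts (mean 13.5 M against 18.7 M), so a level of 0 was easier to reach there.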

How the data were processed

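The authors deposited 1 table of raw read counts per locus, whole numbers that sum to a different total in each library, with CPM columns beside them. Set against the counts, the deposited CPM values are the counts over their column sum, without scaling between libraries. They were left aside. Trimmomatic, TopHat, HTSeq and edgeR, among others, are named with build TAIR10 in the submitters' processing notes, without roles or versions. A RefSeq gene table of a different assembly version gave names and classes (22869 of 22968 gene identifiers matched), so no coordinates are printed.

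Counts were fitted in R 4.3.3 with edgeR 4.0.16: filterByExpr, TMM, 1 robust quasi-likelihood model of 4 group means over 12 libraries (8 residual degrees of freedom), with the contrast ddm1cmt2 minus ddm1nrpd1. The standard error is the log2 fold change over the square root of F. The fit was tested on simulated data in which few loci changed. That test does not cover a comparison with 50.5% of loci called. Folds against a group at 0 take 3 counts in the group as floor, and with 1 to 3 counts a ratio has an exact 95% binomial interval. Floors and intervals cover counting error only. The gene lists and the comparison were chosen with earlier results of these data known, and 2 list entries were corrected after the gene table was read. Named loci are the mutated genes, the 6 highest and 6 lowest TE loci and 8 highest and 8 lowest other nuclear loci by fold change (called, without overlap, mean of 1 CPM or more in the higher group), and per list up to 4 called members each way by adjusted p and members at 0. Loci named outside that rule, uncalled list members included, were chosen after their values were seen. The alternatives were RLE and upper-quartile factors, no organelle loci, DESeq2 1.42.0, limma-voom (limma 3.58.1), other filters, the 6 libraries alone, the replicate number as a block, and each library left out.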

Additional observations from a re-analysis of the deposited data

How the results depend on the processing

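Calls over all loci ran from 5731 to 6563 higher and from 5899 to 6455 lower in ddm1cmt2 under the other scalings, filters, tools and sample sets, and from 5636 to 6164 higher and 5182 to 5735 lower when single libraries were left out, against 6469 and 6079. The share of calls that were higher lay between 48.0% and 52.3%. Plastid loci lower in ddm1cmt2 ranged from 2 to 7 when single libraries were left out, against 5. TE calls ranged from 309 to 415 higher and 714 to 772 lower in those fits. Of 5182 values under an alternative, 4978 kept their side of the threshold, 151 were no longer called and 53 became called. No value that was called in either fit turned direction, while 111 values of 42 results, called in neither fit, changed sign. The replicate numbers did not pair the samples (correlations of deviations 0.0355, -0.0867 and -0.0838), and the replicate block gave 6271 higher and 5899 lower. Depth limits TE loci near 1 CPM and every bound against a group at 0.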

Other observations

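Some further loci were picked after their values were seen. A run of 7 neighbouring genes from AT5G07530 to AT5G07580, which holds the glycine-rich oleosin genes known from the tapetum of anthers, was lower in ddm1cmt2 throughout. GRP19 (AT5G07550) stood at 1.21, 6.45 and 11 CPM in ddm1cmt2 and at 155, 139 and 121 CPM in ddm1nrpd1 (-4.45 ± 0.53, edgeR adjusted p = 0.00012), with 3.48 ± 2.30 CPM in ddm1 and 100 ± 10.9 CPM in ddm1nrpe1. GRP20 (AT5G07560, 2.29 ± 0.709 against 12.1 ± 2.30 CPM, -2.41 ± 0.23) and GRP17 (AT5G07530, -1.52 ± 0.34) were lower as well. A run of 7 neighbours from AT1G70820 to AT1G70890 was higher in ddm1cmt2 (median 2.41). With 50.5% of all loci called, runs of this length can arise without a link between neighbours, and this was not tested. Runs join tested loci only, so untested genes may lie within them.

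Among small RNA genes, read here through polyA transcripts of their loci, 21 of 25 snoRNA genes were lower in ddm1cmt2 and 1 was higher (median -1.37), against 24.5% and 26.0% of all loci. Of 22 miRNA genes 6 (27.3%) were higher and 5 (22.7%) lower, near those shares of all loci. MIR167d (AT1G31173) stood at 12.1, 11 and 6.57 CPM against 1.53, 1.79 and 2.66 CPM (2.33 ± 0.25) and MIR863 (AT4G13494) at 14.6 ± 0.381 against 3.52 ± 0.683 CPM (2.06 ± 0.16), while MIR157c (AT3G18217) was lower (0.756 ± 0.0445 against 2.49 ± 0.684 CPM, -1.72 ± 0.29). These counts do not measure the mature RNAs.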
